A study of Homo sapiens with 12 samples.

Results

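SBC5, a human cell line from small cell lung cancer labelled wild type, received 4 Gy of gamma radiation in a solvent background, and its RNA was compared with that of cells given the solvent alone. The comparison rests on 6 of the 12 libraries of the series, chosen by their labels: 3 of radiation (dimethyl sulfoxide, DMSO, then 4 Gy) and 3 of vehicle (DMSO, then 0 Gy). DMSO was given 2 hours before irradiation, cells were kept in RPMI medium with serum, and RNA was collected after 3 days. The 3 combination libraries (1 µM olaparib, which blocks the poly(ADP-ribose) polymerases of DNA repair, 2 hours before 4 Gy) entered the fit to share its estimate of the spread. The 3 olaparib libraries without radiation were left out. Nothing in the labels ties the libraries of a group to separate cultures, so p-values measure the spread between these libraries, which may be technical.

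Ionizing radiation breaks DNA, and cells answer through checkpoint kinases, p53 where it works, repair, and slower changes in growth signalling and stress pathways. The integrated stress response is one of these pathways: stress kinases act on translation initiation, the transcription factor ATF4 is then translated, and it turns on genes of amino acid synthesis and tRNA charging. Growth factor signals run through the kinase ERK to immediate early genes such as EGR1. The mitochondrial genome is separate from the nucleus; it is copied into long transcripts from both strands, which are cut into 13 mRNAs, 2 rRNAs and 22 tRNAs.

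Total counts, in units of 1000000, were 27, 33.7 and 34.1 in vehicle 1 to 3 and 30, 26.9 and 14.3 in radiation 1 to 3. Radiation 3, the shallowest, stood apart: 381 olfactory receptor genes, sensory receptors of the nose, summed to 817 scaled counts per 1000000 (CPM) there and to 363 to 488 in the other 8 libraries of the fit. PCSK5, a protease gene, took 1.17% of the counts of radiation 3 (95% Wilson score interval 1.17 to 1.18%, counting error only), 0.14% of those of vehicle 1, and 0.035% or less of the others. The log2 change of PCSK5 was -1.73 without radiation 3 and 2.61 with it, and neither passed the test. Summed markers in radiation 3 against the range of the other 8 libraries were 15.6 against 2.14 to 4.43 CPM for 8 endothelial genes and 13.5 against 2.21 to 4.79 for 9 airway and alveolar genes. For 7 erythroid genes they were 4.19 against 1.08 to 2.33. Leukocyte markers summed to 80.3 CPM there and 85.2 to 107 elsewhere, nearly all of it CD68, with CD3D at 0 in every library. Fibroblast markers, mostly PDGFRA, summed to 107 there and 86.8 to 121 elsewhere. Of the lineage genes of small cell lung cancer, INSM1 was at 0.291 CPM or less in all 9 libraries. NEUROD1 was at 0.441 to 4.06, POU2F3 at 0.129 to 1.75, the neuroendocrine marker SYP at 16.8 to 27.8, and YAP1, the factor of a form that lacks neuroendocrine markers, at 81.2 to 126. Results were therefore computed without and with radiation 3; beyond that, the part of these RNAs in the results was not tested. A gene that passed edgeR's test at an adjusted p of at most 0.05 is described as called, and as kept where it was called without radiation 3, had the same sign with it, and had all 3 radiation libraries on 1 side of all 3 vehicle libraries. Separation of the groups in a kept gene is thus part of how it was chosen, not a further result. Log2 changes below are radiation minus vehicle without radiation 3 unless a sentence says otherwise.

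Radiation shifted few genes, most of them downward and by modest amounts. Without radiation 3, 100 of 27054 genes tested were called higher (0.37%) and 181 lower (0.669%). With it, 31 of 26064 were higher (0.119%) and 139 lower (0.533%). No gene called without it and tested in both fits had the opposite sign with it. The fits share 8 libraries, so this sameness of sign is largely built in. Both fits called 27 genes higher and 128 lower. Kept genes numbered 73 higher (0.27%) and 163 lower (0.602%), with a median size of 0.55 and 0.5 on the log2 scale, and 8 in each direction reached a log2 size of 1. Of the 236 kept genes, 155 were also called with radiation 3. For scale, all 3 radiation libraries lay above all 3 vehicle libraries in 6.43% of the genes tested and below them in 8.15%. The kept genes were mostly protein coding (71 of 73 and 148 of 163, against 57.1% of all genes tested) and well expressed (median 44.2 and 82.2 CPM, against 2.89). Radiation 3 was the lowest of the radiation libraries in 58 of the 73 higher genes and in 115 of the 163 lower ones, so it lay nearest to vehicle in most rises and farthest from it in most falls. Among all genes tested it was the lowest in 35.4% and the highest in 42.7%.

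Scaling and the choice of libraries set these counts. With scaling by library size only, which moved the median log2 change of all genes from -0.02 to 0.09, the split turned to 488 higher and 108 lower. With all 3 olaparib libraries in the fit, of which olaparib 2 and 3 carry summed olfactory receptor counts of 1897 and 2098 CPM (by library size, against 355 to 920.2 in the other 10 libraries), 1 gene was called without radiation 3 and 0 with it (923 of 38548 and 1358 of 31858 genes had an unadjusted p under 0.05), while the sizes of change hardly moved: EGR1 stood at -1.87 with an adjusted p of 0.439. All 236 kept genes kept their sign in every alternative that tested them. Of these, 68 (21 higher and 47 lower) were called in every alternative that tested them, the one with all olaparib libraries aside: 56 in 18 alternatives, and 12 in 17, since 1 leaves out mitochondrial and small structural RNAs. That setting ended the call of each of the 66 named genes called here, and is not repeated below.

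**Figure D1:**
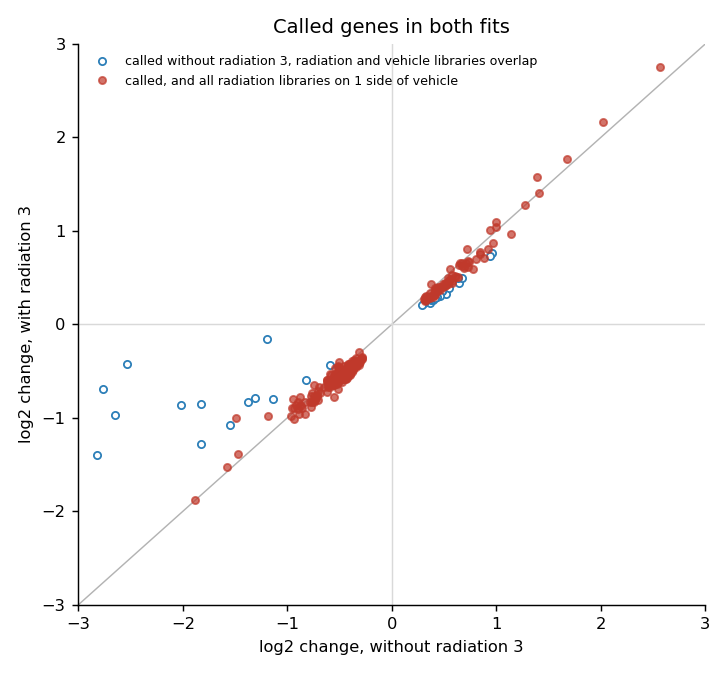
Log2 change after radiation, fitted without radiation 3 (horizontal axis) and with it (vertical axis), for genes called without it; filled points are genes whose 3 radiation libraries lie on 1 side of the 3 vehicle libraries, and the grey line marks equal values. The 271 genes plotted have the same sign on both axes, which is largely built in since the fits share 8 libraries. A further 9 called genes tested in both fits lie beyond the limit of 3 on an axis.

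The mRNAs of the mitochondrial genome fell together. Of 13, which encode core subunits of complexes I, III and IV and of the ATP synthase, 12 fell without radiation 3 and all 13 with it, beside 0.669% and 0.533% of all genes. Their median log2 change was -0.75 (-0.83 with radiation 3, -0.63 with library size only), against -0.02 over all genes tested. All 13 lay below every vehicle library in every radiation library, and together they took 4.79 to 5.05% of counts in vehicle and 3.05 to 3.47% in radiation. In bulk RNA, a change in the cells present and a change in RNA per cell cannot be told apart.

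The largest and the smallest of the 12 falls both lay in complex I. MT-ND3 stood at 351, 368 and 366 CPM in vehicle 1 to 3 and at 184, 185 and 180.5 CPM in radiation 1 to 3. The groups did not overlap, and the log2 change was -0.97 ± 0.07 SE, adjusted p = 2.20e-10, with -0.98 when radiation 3 was included. MT-ND4 went from 13969, 13489 and 13793 CPM to 7384, 7632 and 7752 CPM, a log2 change of -0.87 ± 0.06 SE, adjusted p = 8.72e-12. MT-ND4L changed by -0.90, MT-ND2 by -0.74 and MT-ND5 by -0.69; MT-ND1 had the smallest fall, from 2087, 2048 and 2063 CPM to 1440.2, 1429.7 and 1440.2 CPM (-0.53 ± 0.06 SE, adjusted p = 4.11e-06). MT-ND6, the member read from the other strand, had 1 vehicle library near the radiation level, at 2907, 2899 and 2115 CPM against 1663, 1707 and 1878 CPM, and passed the test only with radiation 3 (log2 change -0.65 ± 0.17 SE, adjusted p = 0.251 without it, -0.59, adjusted p = 0.0163 with it). The ATP synthase subunit MT-ATP6 fell from 2217, 2268 and 2034 CPM to 1125, 1147 and 1221 CPM (-0.94 ± 0.06 SE, adjusted p = 2.49e-11). Its neighbour MT-ATP8 fell by 0.90 on the log2 scale; MTATP6P1, a nuclear copy of this stretch that can share its reads, fell by 0.92. In complex IV, the cytochrome c oxidase subunits MT-CO1, MT-CO2 and MT-CO3 changed by -0.75, -0.79 and -0.71, and MT-CO1 was not called without radiation 1 (adjusted p = 0.0567). MT-CYB, of complex III, changed by -0.59.

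The other RNAs of the same genome did not all follow. MT-RNR2, the 16S rRNA, made up 30.2 to 32.2% of counts in vehicle and 29.2 to 31.4% in radiation, with a log2 change of -0.09 ± 0.04 SE, adjusted p = 0.399. MT-RNR1, the 12S rRNA, lay below vehicle in every radiation library, with a change of -0.84 ± 0.17 SE, adjusted p = 0.152 without radiation 3 and -0.95, adjusted p = 6.84e-04 with it. Of 21 mitochondrial rRNAs and tRNAs tested, 6 were lower without radiation 3 and 3 with it (0.669% and 0.533% of all genes). Kept were 2 (0.602% of all genes), both tRNAs. MT-TY, the tyrosine tRNA, went from 60.1, 91.3 and 79.9 CPM to 28.4, 23.2 and 28.9 CPM (-1.58 ± 0.17 SE, adjusted p = 1.65e-04). MT-TP, the proline tRNA, went from 381, 349 and 396 CPM to 259, 301 and 197 CPM (-0.42 ± 0.09 SE, adjusted p = 0.0121), and was lost without vehicle 1 (adjusted p = 0.07), vehicle 3 (0.0616) or radiation 1 (0.209). Small RNAs such as tRNAs are poorly caught by such libraries, and MT-TS1 and MT-TV, lower without radiation 3, did not separate from vehicle with it; MT-TS1 was also lost without radiation 2 (adjusted p = 0.0688). Nor was MT-TS1 called by DESeq2, by limma-voom, or with the vehicle and radiation libraries alone.

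Nuclear genes that serve mitochondria gave few calls. None of 23 genes for mitochondrial transcription and RNA stability was called by edgeR (2 at an unadjusted p under 0.05, 1 by DESeq2 and 1 by limma-voom; median log2 change 0.09, 0.20 with library size only). Of 43 nuclear genes for respiratory chain subunits, COX7A2 of complex IV passed, at -0.46, beside 0.669% of all genes called lower. In the same list 12 lay below vehicle in every library, against 8.15% of all genes (median -0.14, or -0.03 with library size only). The fall in COX7A2 was no longer called without vehicle 2 (adjusted p = 0.241), vehicle 3 (0.104), radiation 2 (0.502) or any 1 of the combination libraries (0.0682 to 0.0733). For the complex I gene MT-ND3 the combination lay lower still than radiation, in a comparison that called 116 genes (0.429%) without radiation 3 and 1 (0.00384%) with it. The log2 difference, combination minus radiation, was -0.37 ± 0.07 SE, adjusted p = 0.00803, and with radiation 3 it was -0.36, adjusted p = 0.391, no longer past the test. For MT-ND4 and MT-ATP6 it was 0.02 ± 0.05 SE, adjusted p = 0.956 and -0.12 ± 0.06 SE, adjusted p = 0.558 without radiation 3.

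**Figure D2:**
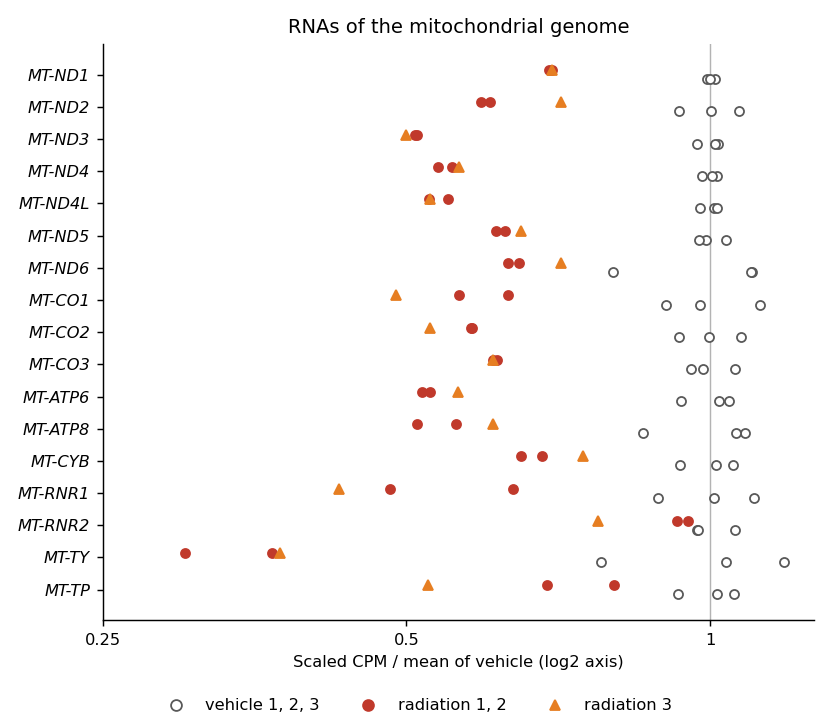
Scaled CPM of mitochondrially encoded RNAs in each library, divided by the mean of the 3 vehicle libraries (log2 axis); open circles are vehicle, filled circles radiation 1 and 2, triangles radiation 3. All 13 mRNAs lie to the left of vehicle in all 3 radiation libraries, while MT-RNR2 lies near 1.

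EGR1, a zinc finger transcription factor induced within minutes by growth factors through ERK, had the largest fall among kept nuclear genes with at least 5 CPM. It stood at 46.3, 46.2 and 45 CPM in vehicle 1 to 3 and at 12.2, 12.7 and 12.4 CPM in radiation 1 to 3. The libraries of each group were close and the groups far apart: the log2 change was -1.88 ± 0.16 SE, adjusted p = 7.55e-09, and -1.88, adjusted p = 9.19e-07 with radiation 3. In the combination EGR1 did not differ from radiation by the test (0.40 ± 0.16 SE, adjusted p = 0.363). Its promoter carries CArG boxes, the sites of serum response factor through which ERK acts. It is shown here, from RefSeq (GRCh38.p14, chr5:138465229-138465528, plus strand, from 250 bases before to 50 after the transcription start), with the matches to the CArG box in capitals.
EGR1: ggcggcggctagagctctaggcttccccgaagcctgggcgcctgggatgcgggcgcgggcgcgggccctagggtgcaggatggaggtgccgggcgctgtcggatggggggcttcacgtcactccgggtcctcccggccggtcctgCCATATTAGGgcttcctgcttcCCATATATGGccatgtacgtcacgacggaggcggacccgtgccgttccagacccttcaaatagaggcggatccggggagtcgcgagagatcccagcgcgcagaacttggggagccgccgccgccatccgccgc
A CArG box on either strand occurred in 351 of 27305 RefSeq promoters of this length (1.28%), among them 3 of 111 kept lower genes and 2 of 57 kept higher genes with a promoter in the table, and EGR1 holds 2.

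Of the other ERK targets, 2 fell. DUSP6, a phosphatase that switches ERK off and is itself induced by it, went from 59.1, 69 and 63.8 CPM to 43.2, 34.8 and 35.6 CPM (-0.71 ± 0.11 SE, adjusted p = 2.43e-04). ETV1, an ETS transcription factor, changed by -0.62, a call that ended without any 1 of the vehicle and radiation libraries (adjusted p 0.0613 to 0.248). Of 17 ERK targets and feedback genes tested these 3, EGR1 included, fell and 0 rose (0.669% and 0.37% of all genes), with a list median of -0.23. The list was chosen after values were seen, and is no independent evidence of its direction. The wider list of 28 immediate early genes split, with 4 lower (EGR1, DUSP6, CCN2 and CCN1) and 2 higher (ATF3 and KLF10), beside 0.669% and 0.37% of all genes. KLF10, a repressor induced by TGF-beta, went from 79.8, 67.2 and 77.8 CPM to 115, 109 and 84.7 CPM (0.58 ± 0.09 SE, adjusted p = 1.54e-04). With radiation 3 KLF10 did not pass (0.46, adjusted p = 0.0582), and the list gave 4 lower and 1 higher (0.533% and 0.119% of all genes). FOS, JUN and MYC did not pass, at log2 changes of -0.46 ± 0.53 SE, adjusted p = 0.875, 0.88 ± 0.24 SE, adjusted p = 0.0609 and -0.22 ± 0.15 SE, adjusted p = 0.691.

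CCN2, a secreted matrix protein and a target of the YAP and TEAD factors, was at 330.1, 330.1 and 341 CPM in vehicle and 221, 182 and 174 CPM in radiation. Each radiation library lay below each vehicle library, and the log2 change was -0.73 ± 0.08 SE, adjusted p = 6.77e-07. Its relative CCN1 changed by -0.38, a call that ended without any 1 vehicle library, radiation 2 or combination 3 (adjusted p 0.0535 to 0.329). RBMS3, an RNA-binding protein, made the third of 22 YAP and TEAD targets that fell, at -0.39, and none rose (0.669% and 0.37% of all genes); its call ended without radiation 2 (adjusted p = 0.0587). YAP1 itself stood at 122, 126 and 119.5 CPM and 96.5, 101 and 81.2 CPM (-0.31 ± 0.08 SE, adjusted p = 0.067). The list of YAP and TEAD targets was chosen after values were seen, and is no independent evidence of its direction.

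Growth factor genes moved in both directions. IGF2, an insulin-like growth factor that signals through the receptor IGF1R, stood at 13.8, 12.3 and 12.3 CPM in vehicle and 23.8, 27.2 and 27.9 CPM in radiation. The groups did not overlap: it rose by 0.99 ± 0.13 SE, adjusted p = 3.03e-05 on the log2 scale, and by 1.04, adjusted p = 1.33e-04 with radiation 3. The read-through gene INS-IGF2 overlaps it and can share its reads. IGF1R went from 279, 299.8 and 305 CPM to 211, 220.2 and 179 CPM (-0.45 ± 0.08 SE, adjusted p = 8.40e-04). IGF2BP1, an RNA-binding protein that holds IGF2 mRNA among others, changed by -0.41, a call that ended without vehicle 2 (adjusted p = 0.0638) or radiation 2 (0.0985). HGF, the ligand of the receptor tyrosine kinase MET, went from 225, 225 and 245 CPM to 156, 132 and 129 CPM, with a log2 change of -0.69 ± 0.09 SE, adjusted p = 8.11e-06. MET itself changed by -0.34, a call that ended without radiation 2 (adjusted p = 0.21). In a list of 30 receptor tyrosine kinase, growth factor and related genes tested, 1 rose and these 4 fell (0.37% and 0.669% of all genes). The list median was -0.09. ERBB4, a receptor tyrosine kinase outside this list, was also kept lower, at -0.34, a call that held in 10 of 18 alternatives.

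**Figure D3:**
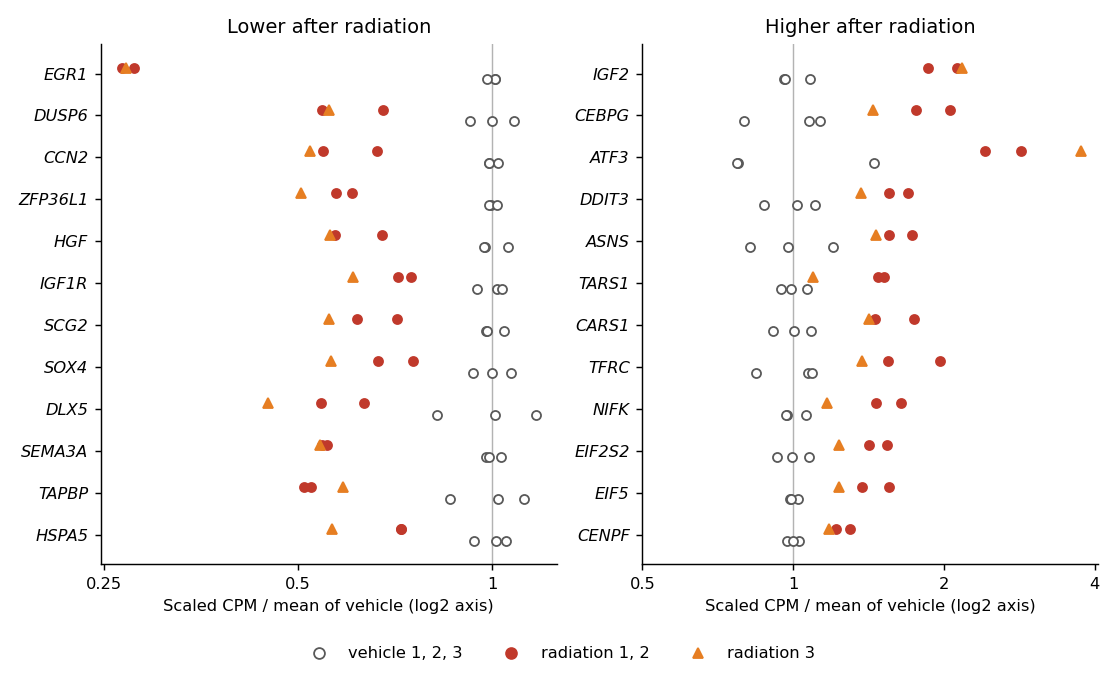
Scaled CPM of 24 kept genes in each library, divided by the mean of the 3 vehicle libraries (log2 axes); the left panel holds genes lower after radiation and the right panel genes higher. By the rule for kept genes, the 3 radiation libraries of each gene lie on 1 side of vehicle. EGR1 lies farthest to the left.

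Part of the integrated stress response rose. Of 33 ATF4-linked genes tested, 10 were higher and 0 lower without radiation 3, against 0.37% of all genes higher. With radiation 3, 5 were higher (0.119% of all genes), and 6 were kept (0.27%). The list median was 0.26 (0.34 with radiation 3, 0.37 with library size only), and 11 of 33 lay above vehicle in every library, against 6.43% of all genes. CEBPG, a partner of ATF4 on DNA, went from 18.2, 24.6 and 25.9 CPM to 40.2, 47 and 33.1 CPM (0.92 ± 0.13 SE, adjusted p = 5.45e-05). DDIT3, the stress factor CHOP, went from 45.5, 53.2 and 57.7 CPM to 88.3, 81.1 and 71.1 CPM (0.70 ± 0.10 SE, adjusted p = 1.26e-04). ASNS, which makes asparagine, went from 44.7, 53.4 and 65.6 CPM to 84.8, 94.4 and 79.9 CPM (0.71 ± 0.12 SE, adjusted p = 0.00266). By the rule for kept genes the radiation libraries lay above vehicle in all of these, with radiation 3 the nearest to it.

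ATF3, a factor induced by ATF4 and by other stress signals, was low, at 1.92, 1.90 and 3.57 CPM in vehicle and 7.02, 5.94 and 9.25 CPM in radiation. Its change was 1.39 ± 0.29 SE, adjusted p = 0.00876, and the call ended without vehicle 1 (adjusted p = 0.0674), vehicle 2 (0.0842) or radiation 1 (0.0928). ATF3 was also not called by DESeq2 or with the vehicle and radiation libraries alone. STC2, a secreted glycoprotein, was also kept, at 0.38, and was lost without vehicle 1, vehicle 2 or radiation 1 (adjusted p 0.1 to 0.316). PPP1R15A, which reverses the block on initiation, and MTHFD2, a mitochondrial folate enzyme, rose by 0.52 and 0.39 without radiation 3, but radiation 3 overlapped vehicle in both, and both were lost without vehicle 1 (adjusted p = 0.107 and 0.106) or radiation 1 (0.0875 and 0.18), PPP1R15A also without vehicle 2 (0.137). The mRNA of ATF4, whose protein is set by translation, did not pass, at 129, 150.4 and 158 CPM and 169.7, 144 and 128 CPM (0.10 ± 0.09 SE, adjusted p = 0.79). SLC7A5, an amino acid transporter of the same list, was at 0.38 ± 0.16 SE, adjusted p = 0.391.

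Cytosolic aminoacyl-tRNA synthetases, which load amino acids onto tRNAs, overlap that list in SARS1, AARS1 and GARS1. Of 20 tested, 6 were higher and 0 lower without radiation 3 (0.37% of all genes higher), 4 were kept (0.27%), and 1, CARS1, was called with radiation 3 (0.119%). The median was 0.25, or 0.16 with radiation 3. This list and that of mitochondrial synthetases were chosen after values were seen, and are no independent evidence of their direction. CARS1, for cysteine, went from 29, 32 and 34.6 CPM to 46.4, 55.5 and 45.1 CPM (0.68 ± 0.11 SE, adjusted p = 3.69e-04). TARS1, for threonine, went from 126, 142 and 133 CPM to 197, 203 and 146 CPM (0.58 ± 0.08 SE, adjusted p = 3.02e-05), or 0.45, adjusted p = 0.0674 with radiation 3, which lay just above vehicle. GARS1 (glycine) and IARS1 (isoleucine) were kept at 0.43 and 0.41. SARS1 (serine) and AARS1 (alanine) rose by 0.51 and 0.48 without radiation 3, which overlapped vehicle in both. The synthetases at the other end of the order, KARS1, QARS1 and VARS1, had values of -0.05, -0.11 and -0.25 and did not pass. The 17 mitochondrial synthetases had a median of -0.18 (-0.25 with radiation 3), with 0 called higher and 1 lower (0.37% and 0.669% of all genes).

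**Figure D4:**
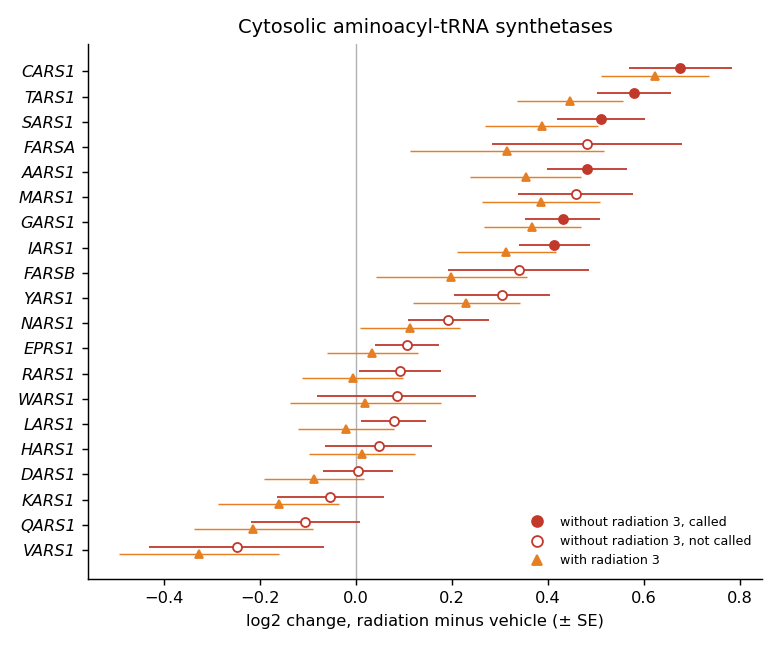
Log2 change after radiation (± SE) of 20 cytosolic aminoacyl-tRNA synthetases, without radiation 3 (circles, filled where called) and with it (triangles). CARS1 and TARS1 lie highest, and every triangle lies to the left of its circle.

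ATF4 with a C/EBP partner binds the letters TGATGCAA or close variants. The promoters of 2 kept synthetases and of ASNS, genes that rose together, are shown because they hold a match. They are from RefSeq (GRCh38.p14), with the same window as above: CARS1 at chr11:3057374-3057673, minus strand, TARS1 at chr5:33440715-33441014, plus strand, and ASNS at chr7:97872359-97872658, minus strand. Capitals mark TGATGCAA, here read on the opposite strand, in CARS1 and TARS1, and the variant TGATGAAA in ASNS.
CARS1: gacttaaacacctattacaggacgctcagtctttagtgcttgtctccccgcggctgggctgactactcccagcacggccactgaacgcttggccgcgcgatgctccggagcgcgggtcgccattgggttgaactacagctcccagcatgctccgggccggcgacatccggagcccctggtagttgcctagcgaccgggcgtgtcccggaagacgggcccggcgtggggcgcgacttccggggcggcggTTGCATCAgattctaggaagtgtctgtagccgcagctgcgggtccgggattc
TARS1: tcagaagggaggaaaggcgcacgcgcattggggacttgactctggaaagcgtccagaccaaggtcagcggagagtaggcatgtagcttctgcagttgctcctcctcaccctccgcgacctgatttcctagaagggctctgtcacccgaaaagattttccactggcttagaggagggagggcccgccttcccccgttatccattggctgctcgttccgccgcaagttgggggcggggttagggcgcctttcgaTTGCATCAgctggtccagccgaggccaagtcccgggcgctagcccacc
ASNS: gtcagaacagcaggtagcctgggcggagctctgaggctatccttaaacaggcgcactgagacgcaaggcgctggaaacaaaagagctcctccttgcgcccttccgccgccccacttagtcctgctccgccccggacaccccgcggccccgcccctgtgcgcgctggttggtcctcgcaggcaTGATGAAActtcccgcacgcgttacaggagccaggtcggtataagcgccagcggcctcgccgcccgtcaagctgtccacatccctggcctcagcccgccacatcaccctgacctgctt
TGATGCAA on either strand occurred in 252 of 27305 promoters (0.923%) and in 6 of the 16 synthetase promoters in the table (37.5%). These were AARS1, CARS1, IARS1 and TARS1, which rose, and MARS1 and NARS1, which did not pass. GARS1 and SARS1, which also rose, did not hold TGATGCAA. It occurred in 4 of 57 kept higher genes (7.02%) and 1 of 111 kept lower genes (0.901%). TGATGAAA occurred in 299 promoters (1.10%). It was in 1 of 57 kept higher genes (1.75%), which was ASNS, in 0 of 111 kept lower genes and in 0 of the 16 synthetases. A match is a description of the letters, not of binding.

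Translation and ribosome genes gave scattered calls. EIF2S2, a subunit of the initiation factor on which the stress kinases act, went from 125, 134 and 145 CPM to 207, 191 and 166 CPM (0.56 ± 0.08 SE, adjusted p = 8.23e-05). EIF5, which works with it in start codon choice, went from 67.8, 70.4 and 68.1 CPM to 107, 94.3 and 85 CPM (0.55 ± 0.08 SE, adjusted p = 2.39e-04). EIF5A, an elongation factor, changed by -0.56, a call that ended when any 1 of the 8 libraries was left out (adjusted p 0.0565 to 0.295). These were the 3 calls among 44 translation factors, 2 higher and 1 lower (0.37% and 0.669% of all genes), with a median of -0.06. With radiation 3, EIF5A was not called (adjusted p = 0.0554). NIFK, a nucleolar protein, rose by 0.63 ± 0.09 SE, adjusted p = 5.78e-05, while none of a list of 30 ribosome biogenesis genes was called by edgeR (9 at an unadjusted p under 0.05, 3 higher by DESeq2 and 3 by limma-voom). Of 79 ribosomal protein genes 3 were lower (0.669% of all genes), among them RPS16 and RPL38 at -0.55 and -0.45. The list median was -0.10, or 0.01 with library size only, so its side of 0 turned with the scaling. With radiation 3, 2 of these genes were lower (0.533% of all genes), and RPS16 was not called (-0.78, adjusted p = 0.173). RPS16 was no longer called without radiation 1 (adjusted p = 0.314), and RPL38 not without radiation 2 (0.106). Host genes of small nucleolar RNAs, whose spliced RNAs build up when translation slows, had 5 of 16 higher without radiation 3 by edgeR (0.37% of all genes). With radiation 3, edgeR called 0 (0.119% of all genes higher), with 10 at an unadjusted p under 0.05 and 0 by DESeq2 or limma-voom. SNHG32, SNHG1 and SNHG5 were kept, at 0.53, 0.40 and 0.31, of which SNHG1 was lost without vehicle 2 (adjusted p = 0.0824) or radiation 1 (0.0846) and SNHG5 without any 1 vehicle or radiation library (0.0552 to 0.319); GAS5 and SNHG6 rose by 0.41 and 0.54 without radiation 3, which overlapped vehicle in both. GAS5 was lost without radiation 1 (adjusted p = 0.149), and SNHG32 without vehicle 2 (0.171), radiation 1 (0.0711) or radiation 2 (0.0714).

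Chaperone genes of the endoplasmic reticulum gave calls in both directions. HSPA5, the main chaperone of this compartment, went from 804, 871 and 904 CPM to 620.5, 621 and 484 CPM (-0.47 ± 0.08 SE, adjusted p = 0.0023), and MANF, a secreted cofactor, from 27.7, 36 and 33.4 CPM to 20.6, 21.7 and 22.2 CPM (-0.62 ± 0.14 SE, adjusted p = 0.0153). Without radiation 1 the adjusted p of HSPA5 was 0.051 and that of MANF 0.167; without radiation 2 they were 0.0647 and 0.0829. HSPA5 was also not called by limma-voom. MANF was also lost without vehicle 2 (0.144) or vehicle 3 (0.0604). HERPUD1, which aids degradation, rose by 0.44 without radiation 3, which overlapped vehicle, and was lost without radiation 1 (adjusted p = 0.0761). The list of 23, with 1 higher and 2 lower (0.37% and 0.669% of all genes), had a median of 0.01.

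Of 27 regulators of mRNA decay tested, edgeR called 4 lower and 0 higher (0.669% and 0.37% of all genes), DESeq2 4 and 1, and limma-voom 5 and 0. ZFP36L1, which binds AU-rich elements and speeds the decay of mRNAs, went from 63.4, 62.8 and 64.8 CPM to 38.5, 36.4 and 32.2 CPM (-0.77 ± 0.10 SE, adjusted p = 3.03e-05). HNRNPD, another AU-rich element binder, went from 122, 122 and 110.1 CPM to 77, 90.3 and 75.6 CPM (-0.50 ± 0.09 SE, adjusted p = 0.00167). KHSRP, which also binds AU-rich elements, and CNOT3, a subunit of the deadenylase complex, changed by -0.38 and -0.49; the call of KHSRP held in 7 of 18 alternatives. With radiation 3 the calls were 2, ZFP36L1 and HNRNPD, both lower (0.533% of all genes). HNRNPD was lost without radiation 1 (adjusted p = 0.0931), and both CNOT3 (0.0643 to 0.276) and KHSRP (0.0566 to 0.21) on leaving out any 1 library but vehicle 2.

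Of 24 lineage genes tested, 4 fell and 0 rose, against 0.669% and 0.37% of all genes. SCG2, a secretory granule protein, went from 136, 137 and 145 CPM to 99.2, 85.9 and 77.8 CPM (-0.59 ± 0.09 SE, adjusted p = 9.13e-05). SOX4, a transcription factor of progenitor cells, went from 247, 231 and 264 CPM to 186, 164 and 139 CPM (-0.50 ± 0.08 SE, adjusted p = 6.52e-04). SOX2, a stem cell factor amplified in some small cell lung cancers, went from 567, 595 and 541 CPM to 459.5, 418 and 365 CPM (-0.37 ± 0.07 SE, adjusted p = 0.00266). FOXA1, a pioneer factor of endoderm, changed by -0.54. The list median was -0.25 (-0.11 with radiation 3). SOX2 and FOXA1 lost their calls without radiation 2 (adjusted p = 0.11 and 0.0623). SOX2 was lower in the combination than in radiation (log2 combination minus radiation -0.44 ± 0.07 SE, adjusted p = 0.00117), which did not pass with radiation 3 (-0.36, adjusted p = 0.511). Such differences went both ways. Without radiation 3, STC2 (0.57, adjusted p = 0.00131) and IGF2BP1 (0.35, 0.0479) were higher in the combination. H1-2 (-0.79, adjusted p = 0.00451) and SNHG1 (-0.40, 0.0244) were lower there. None of these 4 passed with radiation 3 (adjusted p 0.163 to 0.658).

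Of 5 DLX homeobox genes tested, which pattern the forebrain and jaw, 3 fell (0.669% of all genes). DLX5 went from 80.8, 65.7 and 93.4 CPM to 43.3, 50.6 and 35.9 CPM (-0.77 ± 0.13 SE, adjusted p = 0.00133), its neighbour DLX6 from 37.2, 35.1 and 41.2 CPM to 22.3, 23.9 and 20.3 CPM (-0.71 ± 0.13 SE, adjusted p = 0.0023), and DLX1 changed by -0.56, a call that ended without vehicle 2, vehicle 3 or radiation 2 (adjusted p 0.0711 to 0.205). In all 3 genes the radiation libraries lay below vehicle, as the rule for kept genes requires. The axon guidance genes SEMA3A, SLIT2 and NRP1, 3 of 22 tested, fell too (0.669% of all genes). Both lists were chosen after values were seen. SEMA3A, a repellent ligand, went from 26.9, 27.3 and 28.5 CPM to 15, 15.3 and 14.9 CPM (-0.87 ± 0.15 SE, adjusted p = 0.00114). SLIT2, another repellent, went from 161, 176 and 165 CPM to 117, 111 and 98.4 CPM (-0.56 ± 0.08 SE, adjusted p = 1.26e-04), and NRP1, the semaphorin co-receptor, changed by -0.50, a call that held in 8 of 18 alternatives and ended without any 1 library but vehicle 3 (adjusted p 0.0505 to 0.182).

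Of 27 actin, thymosin and connexin genes, 3 fell and 1 rose without radiation 3 (0.669% and 0.37% of all genes), and with it 4 fell and 0 rose (0.533% and 0.119%). The rise was GJA9, a connexin gene near silent in vehicle, at 0.160, 0.0968 and 0 CPM in vehicle and 1.46, 1.20 and 0.25 CPM in radiation (3.93 ± 0.85 SE, adjusted p = 0.0114; 3.49, adjusted p = 0.122 with radiation 3), and its call ended without vehicle 2 (adjusted p = 0.0569) or vehicle 3 (0.0582). GJA9 was also not called by DESeq2, by limma-voom, or with the vehicle and radiation libraries alone. GJA1, the gap junction protein connexin 43, went from 368, 381 and 390.0 CPM to 288, 256 and 223 CPM (-0.48 ± 0.07 SE, adjusted p = 2.25e-04). It was lower in the combination than in radiation 1 and 2 (-0.31 ± 0.07 SE, adjusted p = 0.0401), but radiation 3 lay within the combination range of 214 to 227 CPM, and with it the difference did not pass (-0.22, adjusted p = 0.752). GRIA2, a glutamate receptor subunit, went from 219, 218 and 225 CPM to 164, 154 and 115 CPM (-0.47 ± 0.09 SE, adjusted p = 0.00167). The combination was lower than radiation 1 and 2 (-0.46 ± 0.08 SE, adjusted p = 0.00537), but radiation 3 lay within its range of 103 to 130.1 CPM, and with it the difference did not pass (-0.32, adjusted p = 0.667). TMSB4X, which binds free actin, went from 658, 699.5 and 695 CPM to 556, 479 and 375 CPM (-0.40 ± 0.07 SE, adjusted p = 0.00167), and the combination lay below radiation (-0.57 ± 0.07 SE, adjusted p = 8.71e-05), a difference that did not pass with radiation 3 (-0.43, adjusted p = 0.507). ACTB, the cytoskeletal actin, changed by -0.41. Without radiation 2 neither TMSB4X (adjusted p = 0.116) nor ACTB (0.233) was called, and ACTB was lost without vehicle 1 (0.0563) or vehicle 3 (0.0772) as well. Nor did limma-voom call ACTB. CTSK, a cysteine protease, went from 341, 379 and 389.7 CPM to 273, 233 and 203 CPM (-0.55 ± 0.08 SE, adjusted p = 9.12e-05).

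In the lists of antigen presentation, checkpoint ligands, chemokines, interferon response and nucleic acid sensing, 2 genes passed, beside 1.04% of all genes. TAPBP, tapasin, which loads peptides onto MHC class I, went from 24.7, 29.3 and 32 CPM to 14.6, 15 and 16.8 CPM (-0.95 ± 0.15 SE, adjusted p = 3.72e-04) and was the only call by edgeR among 20 genes of that pathway; DESeq2 and limma-voom each called 1 lower and 1 higher. CD276, the checkpoint ligand B7-H3, went from 39.6, 41.7 and 42.1 CPM to 29.6, 28.4 and 25.3 CPM (-0.51 ± 0.12 SE, adjusted p = 0.0281); its call ended without any 1 of the 5 vehicle and radiation libraries of the fit (adjusted p 0.0637 to 0.175). None of 37 type I interferon-stimulated genes was called by edgeR, DESeq2 or limma-voom without or with radiation 3 (4 and 8 at an unadjusted p under 0.05; median -0.02 and 0.11). Of 27 chemokines 5 had counts enough for the test, and none was called by any of the 3 tools (1 at an unadjusted p under 0.05); CCL28 was at 0.16 ± 0.20 SE, adjusted p = 0.887. CD274, which encodes PD-L1, and CCL5 were below the count filter. CXCL10 was at 0 in vehicle and in radiation 1 and 2 and at 0.125 CPM in radiation 3, and IFNB1 at 0 in all 9 libraries, which allows up to 0.0968 to 0.187 CPM at 3 counts a library. CGAS, the sensor of cytosolic DNA, was at 31.6, 33.3 and 27.5 CPM and 40.0, 31.9 and 36.1 CPM (0.22 ± 0.12 SE, adjusted p = 0.571). STING1, its partner, was at 0.399, 0 and 0 CPM and 0.238, 0.149 and 3.06 CPM.

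The genes most tied to DNA damage did not pass at 3 days. Of 34 p53 target genes edgeR called 0 without radiation 3 (5 at an unadjusted p under 0.05, 2 higher by DESeq2, 1 by limma-voom). With radiation 3, edgeR called 1 higher, beside 0.119% of all genes. This was AEN, a nuclease, with a log2 change of 0.80 ± 0.22 SE, adjusted p = 0.0732 without radiation 3 and 0.96, adjusted p = 0.0276 with it. The list median was 0.07, or 0.18 with library size only. CDKN1A, the p53-induced cell cycle inhibitor, was near silent, at 0.998, 0.839 and 0.487 CPM in vehicle and 1.59, 0.859 and 1.19 CPM in radiation (0.67 ± 0.54 SE, adjusted p = 0.775). MDM2, the ligase that degrades p53, was at 157, 159.7 and 164 CPM and 193, 197 and 150.5 CPM (0.28 ± 0.08 SE, adjusted p = 0.0796); radiation 3 lay below vehicle, and the gene was called in 5 of 19 alternatives, among them the one without combination 1. None of 33 homologous recombination and Fanconi anemia genes was called by edgeR (2 at an unadjusted p under 0.05, 1 higher by DESeq2 and 1 by limma-voom). Among 28 checkpoint and end joining genes edgeR also called 0 (5 unadjusted, 2 lower by DESeq2, 1 by limma-voom). BRCA2 lay above vehicle in each radiation library, at 91.1, 94.9 and 75.4 CPM and 113, 108 and 103 CPM (0.34 ± 0.09 SE, adjusted p = 0.0699), and was called in 6 of 19 alternatives. BRCA1 was at 0.19 ± 0.09 SE, adjusted p = 0.506. Of 22 genes for PARP enzymes and for turnover of poly(ADP-ribose) none was called by any of the 3 tools (3 unadjusted), with PARP1 at -0.25 ± 0.09 SE, adjusted p = 0.234.

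The lists of DNA replication and mitosis genes gave 2 calls by edgeR, beside 1.04% of all genes called. With radiation 3 the 1 call was TYMS, beside 0.533% of all genes lower, and CENPF did not pass (0.30, adjusted p = 0.162). TYMS, thymidylate synthase, was the 1 lower gene of 46 in DNA replication, at -0.54, and its call ended without vehicle 2, radiation 1 or radiation 2 (adjusted p 0.13 to 0.158). CENPF, a kinetochore protein that peaks in G2 and mitosis, was the 1 higher gene of 46 in mitosis, going from 471, 498 and 484 CPM to 630.1, 590.2 and 572 CPM (0.33 ± 0.06 SE, adjusted p = 0.00405), and it was lost without radiation 1 (adjusted p = 0.0901). Replication-dependent histone genes, whose mRNAs mark S phase, had 0 of 49 called by edgeR, DESeq2 or limma-voom without radiation 3 (16 unadjusted), with 23 of 49 below vehicle in every library, beside 8.15% of all genes. Their median was -0.37 (-0.46 with radiation 3, -0.26 with library size only). H1-2, a linker histone, was at 49.2, 52.2 and 60.1 CPM and 46, 37.3 and 28.4 CPM (-0.37 ± 0.13 SE, adjusted p = 0.266). Histone genes are near-identical copies in clusters, and their reads can be split among them. None of 32 genes of cholesterol and fatty acid synthesis was called by edgeR (6 unadjusted, 0 by DESeq2, 1 lower by limma-voom; median -0.12, -0.01 with library size only).

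Among the remaining large changes, TFRC, the receptor that takes up iron-loaded transferrin, went from 93, 118 and 120.2 CPM to 171, 217 and 152 CPM (0.81 ± 0.11 SE, adjusted p = 0.00125). Low genes made up most of the largest rises: ABCA5, a lipid transporter, went from 2.63, 2.55 and 2.40 CPM to 6.35, 5.94 and 6.06 CPM (1.28 ± 0.29 SE, adjusted p = 0.017). SIPA1L2, CLGN, NIBAN1 and FAM107A rose by 1.00, 0.97, 0.94 and 1.14. All 5 lost their calls on leaving out 1 of several libraries: without radiation 1 the adjusted p of ABCA5 was 0.129, of SIPA1L2 0.381, of CLGN 0.0931 and of FAM107A 0.199, and without radiation 2 that of NIBAN1 was 0.509. Without vehicle 2 they ran from 0.0613 (CLGN) to 0.144 (NIBAN1). Vehicle 1 (ABCA5, NIBAN1, FAM107A), vehicle 3 (all but CLGN) and radiation 2 (ABCA5, FAM107A) ended further calls. DESeq2 did not call ABCA5, CLGN or FAM107A. With radiation 3, edgeR called all 5 but FAM107A (0.96, adjusted p = 0.16). Large falls included BCYRN1, a brain cytoplasmic RNA with many near-copies, from 77.7, 84.6 and 92.4 CPM to 49.1, 38.8 and 58.9 CPM (-0.95 ± 0.13 SE, adjusted p = 4.30e-04). CD37, a tetraspanin, was at 6.03, 7 and 5.62 CPM and 1.70, 2.73 and 5.06 CPM (-1.49 ± 0.31 SE, adjusted p = 0.00914), a call lost without vehicle 2 (adjusted p = 0.0686) or radiation 1 (0.212). DESeq2 did not call CD37. SNORA22, a small nucleolar RNA, changed by -1.47, lost without vehicle 2 (0.0698) or radiation 2 (0.109). HES1, a Notch target, stood at 3.43, 3.42 and 3.35 CPM in vehicle and 6.04, 6.95 and 6.19 CPM in radiation, apart in every library but not past the test (0.93 ± 0.25 SE, adjusted p = 0.0655). Single members of further lists passed: the growth factor subunit gene INHBA, the proteasome gene PSMB2 and the glycolysis gene PGAM1 fell by 0.36, 0.62 and 0.40 on the log2 scale, and the receptor NOTCH2 rose by 0.36 without radiation 3, which overlapped vehicle. With radiation 3, INHBA (adjusted p = 0.0513), PGAM1 (0.061) and NOTCH2 (0.273) did not pass. All 4 calls ended on leaving out 1 of several libraries: INHBA without vehicle 1, vehicle 2 or radiation 2 (adjusted p 0.0549 to 0.214), PSMB2 without vehicle 1, vehicle 3, radiation 1 or radiation 2 (0.0703 to 0.152), PGAM1 without vehicle 2, vehicle 3, radiation 2 or any 1 combination library (0.0777 to 0.505), and NOTCH2 without vehicle 1, vehicle 2 or radiation 1 (0.148 to 0.337). DNM3OS, HMGA2 and CCND2 were singled out after their values were seen. DNM3OS, the host RNA of miR-199 and miR-214, went from 85.1, 98.9 and 100.4 CPM to 52.5, 52.4 and 47.6 CPM (-0.86 ± 0.10 SE, adjusted p = 2.40e-06). HMGA2, a chromatin protein of growing cells, changed by -0.61, and CCND2, a cyclin of G1, went from 0.918, 1.16 and 0.682 CPM to 4.28, 3.21 and 5 CPM (2.02 ± 0.38 SE, adjusted p = 0.00239).

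**Figure D5:**
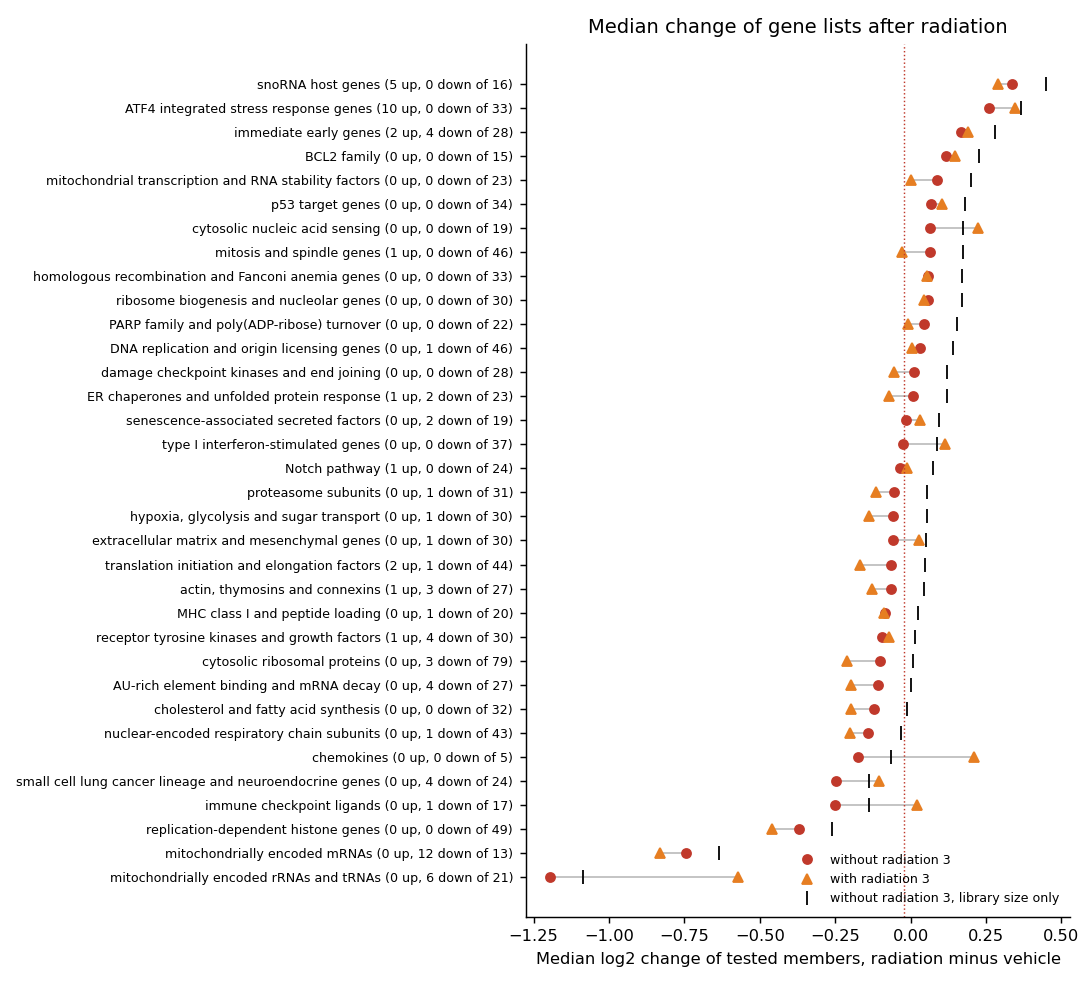
Median log2 change of the tested members of each gene list, radiation minus vehicle, without radiation 3 (circles), with it (triangles) and without it under library size only (ticks); the dotted line is the median of all genes tested, and counts of called members stand beside each name. Mitochondrial RNAs and histone genes lie at the low end, and snoRNA host genes and ATF4-linked genes at the high end.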

How the data were processed

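RNA came from stranded total RNA libraries. The submitters' processing notes name kallisto 0.46.1 and DESeq2; which transcriptome and build were used is not given in the sources used here. The authors deposited estimated counts per gene (68.8% of values whole to within 1e-06) in 60649 rows. After 44 rows of chromosome Y copies were added to their X partners, 60605 genes remained, of which 60463 matched a name, and counts were rounded. Totals were 14.3 to 34.1 a library in units of 1000000, so precision is lowest in radiation 3. In R 4.3.3, edgeR 4.0.16 (default count filter, TMM scaling, robust quasi-likelihood test, Benjamini-Hochberg adjustment over all genes tested, threshold 0.05) was fitted to vehicle, radiation and combination, 8 libraries without radiation 3 and 9 with it; code was tested on simulated data. Alternatives used DESeq2 1.42.0, limma 3.58.1 (voom), other scaling, filters and libraries. Standard errors (SE) are log2 changes divided by the root of the F statistic. CPM values are TMM-scaled.

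Members and gene lists were chosen with earlier results of these data known. Genes named are, among kept genes with at least 5 CPM, the 8 largest changes and 8 smallest p each way, the top 3 called members of each of 39 lists, and a fixed set of names. The lists of synthetases (both), ERK targets, YAP targets, DLX genes and axon guidance genes, and other genes outside the rule (ETV1, DUSP6, CCN1, STC2, PPP1R15A, MTHFD2, MET, ERBB4, IGF2BP1, KHSRP, YAP1, FOS, JUN, MYC, ATF4, AEN, SNHG1, SNHG5, DNM3OS, HMGA2 and CCND2), were chosen after values were seen. Some genes that the rule names are not reported here. Promoters and motifs came from the RefSeq promoter table (GRCh38.p14).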

Additional observations from a re-analysis of the deposited data

How the results depend on the processing

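No called gene changed sign in any alternative that tested it among the 66 named and 236 kept genes. The alternatives share most of their libraries, so this is a weak check. Without radiation 3, 100 higher and 181 lower genes became 488 and 108 with library size only, 167 and 282 with no count filter, 256 and 278 with DESeq2, 195 higher with limma-voom, 63 higher with vehicle and radiation alone, and 0 and 1 with all olaparib libraries; 10 and 24 had a log2 size of at least 1. Leaving out 1 library gave 54 to 123 higher and 103 to 162 lower. With radiation 3, 31 and 139 became 417 higher with library size only, 131 and 255 with no filter, 75 higher with at least 1 CPM in 3 libraries, 87 and 307 with DESeq2, 7 and 42 with vehicle and radiation alone, 0 and 0 with all olaparib libraries, and 11 and 6 at a log2 size of at least 1. Leaving out 1 library gave 8 to 100 higher and 43 to 288 lower. Kept genes became 454 and 90 with library size only. For the combination against radiation, 116 calls became 279 with no filter, 404 with DESeq2, 192 with limma-voom, 176 with olaparib 1 added, 2 with all olaparib libraries, 36 to 344 on leaving out 1 library, and 1 with radiation 3, an alternative chosen after seeing the data. The cause was not tested.

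Replicate numbers did not pair the libraries (correlation of same-numbered libraries -0.214 to 0.0167). With the replicate number as a block, calls were 89 higher and 149 lower without radiation 3, 18 and 83 with it, and 82 for the combination against radiation. Of 18 alternatives other than the one with all olaparib libraries (17 for mitochondrial genes), the call of KHSRP held in 7, NRP1 in 8, CCN1 in 10, ETV1 and SNHG5 in 11, STC2 and MT-TP in 13, DLX1 and MT-CO1 in 15, MET, IGF2BP1, SNHG1 and MT-ATP8 in 16, and RBMS3 and CCND2 in 17. Depth limits radiation 3 most: 3 counts there are 0.187 CPM, against 0.0968 in vehicle 2.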

Other observations

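Further kept genes belonged to groups not described above. They were chosen after their values were seen, from the genes called in each of 18 alternatives other than the one with all olaparib libraries, so they stand as single values with no theme tested. Among RNA processing genes, SRRM2, a scaffold of nuclear speckles, went from 577, 556 and 628 CPM to 379.7, 436 and 323 CPM in vehicle 1 to 3 and radiation 1 to 3 (log2 change without radiation 3 -0.53 ± 0.07 SE, adjusted p = 7.08e-05, edgeR). HNRNPA2B1, an RNA-binding protein, went from 713, 741 and 648 CPM to 539, 499 and 462 CPM (-0.43 ± 0.07 SE, adjusted p = 5.47e-04). In both genes each radiation library lay below each vehicle library, as the rule for kept genes requires. At the cell surface, CAV1, the coat protein of caveolae, went from 79.1, 88.3 and 94.2 CPM to 57.9, 60.3 and 50.9 CPM (-0.56 ± 0.10 SE, adjusted p = 0.00102). The integrin subunit ITGB8 and the neuronal adhesion protein NRCAM changed by -0.50 and -0.34.

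Subunits of voltage-gated calcium channels moved in both directions. CACNA2D1 went from 113, 109 and 119 CPM to 80.6, 79.8 and 67.2 CPM (-0.51 ± 0.09 SE, adjusted p = 0.0016), while CACNB4 rose from 17.7, 18.1 and 18.2 CPM to 28, 31.3 and 35.6 CPM (0.72 ± 0.12 SE, adjusted p = 8.50e-04). Of rises at higher levels, RIOK3, an atypical kinase, went from 72.9, 75.5 and 78.8 CPM to 115, 101 and 92.7 CPM (0.51 ± 0.08 SE, adjusted p = 6.19e-04), and WSB1, a substrate receptor of a ubiquitin ligase, changed by 0.37.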
